A study of Mus musculus with 8 samples.

Results

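Genes of the hedgehog pathway and of the Gli and Glis families of zinc finger factors were followed in control and dcKO_Nex-Cre mice, in cortex taken at P1. They are the 10 genes *Gli1*, *Gli2*, *Gli3*, *Glis1*, *Glis2*, *Glis3*, *Ptch1*, *Smo*, *Sufu* and *Hhip*, out of 48709 genes listed for each library, and all 10 had enough counts to be tested. They were chosen by family and pathway, except that *Glis3* was taken up because the study had listed it among its raised genes, so its values in the mutant are given as a description without a test. RNA-seq counts were used from 8 libraries, 4 control and 4 dcKO_Nex-Cre, each from whole cortical tissue at postnatal day 1. The dcKO_Nex-Cre mice carry floxed BAF155 (*Smarcc1*) and BAF170 (*Smarcc2*) with Nex-Cre, which acts in projection neurons, so that glia, interneurons and vessels of the tissue keep both genes. The controls were heterozygous for both floxed alleles (BAF155fl/+, BAF170fl/+) and Cre negative, all on a C57BL6/J background, and an effect of the Nex-Cre allele itself cannot be told apart from that of the deletion. The labels name control and mutant only, and the Cre line follows from the study's description of its P1 samples.
Hedgehog proteins are secreted ligands that bind the receptor PTCH1 and so release SMO, a membrane protein that PTCH1 holds inactive, at the primary cilium. SMO then frees the GLI factors from SUFU, which retains them in the cytoplasm and favours the cutting of GLI3 into a repressor. *Gli1*, *Ptch1* and *Hhip* are themselves target genes of the pathway and are often read as a measure of its activity, while GLI3 as a repressor shapes the dorsal telencephalon from which the cortex forms. The GLIS factors share the zinc finger domain of the GLI factors and are not part of the hedgehog relay.

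The libraries held 17958641 to 35191912 counts, the control libraries between 18737230 and 24036915, and mitochondrial genes took 2.33% to 6.87% of them. *Smarcc2* stood at 429 to 486 CPM (the count scaled to library depth, with edgeR's TMM factors) in the control and at 241 to 292 CPM in the dcKO_Nex-Cre cortex, and *Smarcc1* at 139 to 164 and 93.0 to 122 CPM. The log2 fold changes were -0.81 for *Smarcc2* (adjusted p = 0.00267, edgeR) and -0.53 for *Smarcc1* (adjusted p = 0.0348, edgeR), with no overlap between the groups for either. *Smarcc1* missed the threshold within lane tag 2 (log2 fold change -0.46, adjusted p = 0.0752, edgeR) and with the replicate number as a block (-0.54, adjusted p = 0.0578, edgeR). Of the markers of projection neurons, *Neurod2* was at 200.4 to 254 CPM and *Tbr1* at 164 to 191 CPM over the 8 libraries. *Slc17a7*, a vesicular glutamate transporter, was at 82.3 ± 20.1 CPM in control and 56.5 ± 15.0 CPM in mutant libraries (SD, n = 4 each), a log2 fold change of -0.54 (adjusted p = 0.280, edgeR). *Nrn1* was at 27.9 to 31.5 and 20.5 to 26.6 CPM, without overlap (-0.25 on the log2 scale, adjusted p = 0.307, edgeR), and both genes had an unadjusted p under 0.05. *Bcl11b*, also strong in striatal neurons, reached 250.4 CPM in dcKO_Nex-Cre replicate 2, against 101 to 172 CPM elsewhere. Markers of the ventral forebrain and striatum (*Nkx2-1*, *Gsx2*, *Isl1*, *Drd1* and *Drd2*) summed to 73.8 CPM in dcKO_Nex-Cre replicate 2 and to 44.1 CPM in control replicate 2, apart from the other 6 libraries at 20.1 to 27.4 CPM. *Isl1* was the largest part of both sums, at 35.3 and 20.3 CPM. In control replicate 2, *Nkx2-1* (4.05 CPM) and *Drd2* (5.25 CPM) were also the highest of the controls. There *Gsx2* (1.92 CPM) and *Drd1* (12.5 CPM) were not. Lane tag 2 was that of every control library and of the first pair of mutant replicates (1 and 2), whereas mutant replicates 3 and 4 had lane tag 8, with no control beside them. Without dcKO_Nex-Cre replicate 4, edgeR called 1278 genes at an adjusted p under 0.05, against 144 with all libraries, and values that moved with that library are given with and without it.

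*Glis3*, included because it was known to be raised, had the largest log2 fold change of the 10 genes over all libraries, a rank that its choice favours. Within lane tag 2 it was level with *Gli3* and *Sufu*, at 0.47, 0.46 and 0.46 on the log2 scale. *Glis3* encodes a Krüppel-like zinc finger factor known for its role in pancreatic beta cells and the thyroid. The 250 bases before the start sites of these 3 genes, which had the largest log2 fold changes, are shown (RefSeq, GRCm38.p6, in the direction of transcription, 5′ to 3′). They lie at chr19:28680078-28680327 on the minus strand, chr13:15463473-15463722 on the plus strand and chr19:46396646-46396895 on the plus strand. The *Gli3* window precedes the RefSeq start site but lies within the span of the gene in GENCODE M21, which starts at 15463235. Capitals mark the letters CCACCC on either strand, the core of the GLI binding motif GACCACCCA.
Glis3: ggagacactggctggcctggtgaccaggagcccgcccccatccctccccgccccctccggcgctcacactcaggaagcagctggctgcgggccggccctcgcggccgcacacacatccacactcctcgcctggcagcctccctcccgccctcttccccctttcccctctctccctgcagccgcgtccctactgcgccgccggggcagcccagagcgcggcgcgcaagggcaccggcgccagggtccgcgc
Gli3: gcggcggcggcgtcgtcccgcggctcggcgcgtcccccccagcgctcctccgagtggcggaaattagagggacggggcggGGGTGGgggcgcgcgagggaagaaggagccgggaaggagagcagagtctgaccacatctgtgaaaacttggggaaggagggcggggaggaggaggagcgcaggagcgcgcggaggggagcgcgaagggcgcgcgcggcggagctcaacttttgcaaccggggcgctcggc
Sufu: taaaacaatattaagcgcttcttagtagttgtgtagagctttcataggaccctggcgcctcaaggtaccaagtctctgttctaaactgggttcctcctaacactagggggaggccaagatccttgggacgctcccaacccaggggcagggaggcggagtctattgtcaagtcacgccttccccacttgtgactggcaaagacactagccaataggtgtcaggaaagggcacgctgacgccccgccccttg
An entry was found for 8 of the 10 genes, all but *Gli1* and *Glis2*. The full motif of 9 letters was in none of the 8 windows, and it was in 0.225% of 32851 windows of this length over all genes. The core of 6 letters, which is part of the full motif, was in 4 of the 8 windows, those of *Gli2*, *Gli3*, *Hhip* and *Smo*, against 28.1% of all windows. The 8 windows held 54.0% to 82.4% G and C, with *Sufu* the lowest and *Glis1* the highest, and 8 to 41 CpG, against a median of 52.4% and 6 CpG over all windows. A match of letters is a description of the sequence and not a binding site.

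In the control cortex the 10 genes covered a wide range of levels. On the scale of CPM per kilobase of exons, *Glis2*, whose product is known from the kidney, was the highest at 6.43 ± 0.43 (SD, n = 4). The length is that of all annotated exons of a gene and not of the transcripts expressed here, so the order of genes can depend on the annotation. *Smo* followed at 5.26 ± 0.49, *Sufu* at 4.38 ± 0.31 and *Ptch1* at 2.75 ± 0.23 (SD, n = 4 each). The 3 Gli factors lay close together, with *Gli3* at 1.59 ± 0.33, *Gli1* at 1.41 ± 0.060 and *Gli2* at 1.13 ± 0.16 (SD, n = 4 each). *Glis3* stood at 0.656 ± 0.14, *Hhip* at 0.426 ± 0.052 and *Glis1* at 0.151 ± 0.052 (SD, n = 4 each). The ranges of the control libraries overlapped between *Smo* and *Sufu* and between *Gli3* and *Gli1*, so these neighbours in the order did not differ beyond their spread, while the other neighbours did not overlap. *Gli3*, at 1.13 to 1.89, also overlapped *Gli2*, at 0.980 to 1.29, which is not its neighbour. The inhibitor *Sufu* and the receptor pair were thus listed above the transcription factors they act on. In the dcKO_Nex-Cre cortex *Glis3* was at 1.14 ± 0.29 CPM per kilobase (SD, n = 4), a level near that of *Gli2* at 1.28 ± 0.30.

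**Figure D1:**
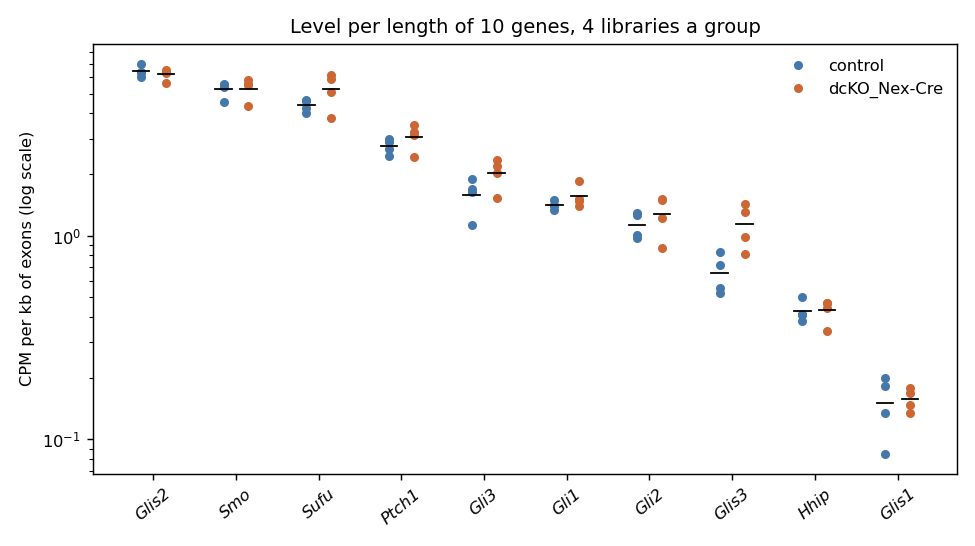
Level of the 10 genes in CPM per kilobase of exons (log axis), with 1 point for each library, 4 per group, and a bar at the mean. The genes are ordered by their control mean, from *Glis2* at 6.43 to *Glis1* at 0.151, and *Glis3* has the widest gap between the 2 groups.

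*Glis3* (ENSMUSG00000052942, chromosome 19 of GRCm38, 28258851 to 28680077, minus strand) was at 4.63, 7.33, 4.88 and 6.34 CPM in control replicates 1 to 4. In dcKO_Nex-Cre replicates 1 to 4 it was at 8.72, 7.20, 12.7 and 11.6 CPM. The groups overlapped by a narrow margin, because dcKO_Nex-Cre replicate 2 was just under control replicate 2. The mean went from 5.80 ± 1.27 to 10.05 ± 2.53 CPM (SD, n = 4 each), or 173% of control, and edgeR put the log2 fold change at 0.79 (standard error 0.21). The 2 dcKO_Nex-Cre libraries of lane tag 8 were above the 2 of lane tag 2. Within lane tag 2 the log2 fold change was 0.47 (standard error 0.20). The pooled SD of *Glis3* within groups was 0.35 on the log2 scale. It includes the gap between the lane tags among the mutant libraries, so it is no separate measure for this shift. The lane cannot be told apart from the samples sequenced in it. Without dcKO_Nex-Cre replicate 4 it was 0.72, and it lay between 0.66 and 0.93 in the fits that each left out 1 library.
The other 2 Glis genes were close in both groups. *Glis2* (ENSMUSG00000014303, chromosome 16, 4594713 to 4624924) was at 26.2, 30.7, 27.6 and 27.8 CPM in the control and at 28.7, 27.6, 24.6 and 28.0 CPM in the dcKO_Nex-Cre replicates 1 to 4. Its log2 fold change of -0.047 had a 95% interval of -0.23 to 0.14 (adjusted p = 0.833, edgeR), and among the 10 genes it varied least between libraries, with a biological coefficient of variation of 0.092 against a median of 0.13 over all genes tested. *Glis1* (ENSMUSG00000034762, chromosome 4, 107434591 to 107635061) had only 7 to 17 counts per library, or 0.308 to 0.733 CPM. At this depth its log2 fold change of 0.046 had a wide 95% interval, from -0.64 to 0.73 (adjusted p = 0.961, edgeR).

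*Gli3* (ENSMUSG00000021318, chromosome 13, 15463235 to 15730026), the main repressor among the Gli factors, was at 16.3, 10.8, 18.2 and 15.7 CPM in control replicates 1 to 4. It was at 19.5, 22.6, 21.1 and 14.6 CPM in dcKO_Nex-Cre replicates 1 to 4. Replicates 1 to 3 of the mutant were above every control library, and replicate 4 was below 3 of the 4 controls. The log2 fold change was 0.35 (standard error 0.17, 95% interval -0.016 to 0.72) and did not pass the threshold of 0.05 (adjusted p = 0.383, edgeR). Without dcKO_Nex-Cre replicate 4 it was 0.47 with an adjusted p of 0.0713 (edgeR), and without control replicate 2, the lowest control, it was 0.23.
*Gli2* (ENSMUSG00000048402, chromosome 1, 118834132 to 119053619), the main activator, was at 8.84, 6.73, 6.93 and 8.68 CPM in the control and at 8.38, 10.4, 10.3 and 6.01 CPM in the dcKO_Nex-Cre replicates. Replicates 2 and 3 of the mutant were above every control, replicate 4 was below every control, and replicate 1 lay within the control range (log2 fold change 0.17, 95% interval -0.22 to 0.57, adjusted p = 0.689, edgeR). The log2 fold change of *Gli2* was 0.32 without dcKO_Nex-Cre replicate 4 (adjusted p = 0.176, edgeR) and 0.086 without replicate 2. *Gli1* (ENSMUSG00000025407, chromosome 10, 127329882 to 127341974), which is both an activator and a target gene, was tightly grouped in the control at 7.10, 7.01, 6.72 and 7.44 CPM. The dcKO_Nex-Cre libraries were at 6.99, 9.27, 7.43 and 7.58 CPM, with replicate 2 above the others. The log2 fold change of *Gli1* was 0.14 (95% interval -0.13 to 0.42, adjusted p = 0.624, edgeR), and without that library it was 0.053. Of the summed level per kilobase of the 3 Gli genes, *Gli3* made up 38.1% ± 5.10 in control and 41.6% ± 2.03 in mutant libraries (SD, n = 4 each), and the range of 39.0% to 43.7% in the mutant lay within the control range of 32.2% to 44.6%.

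**Figure D2:**
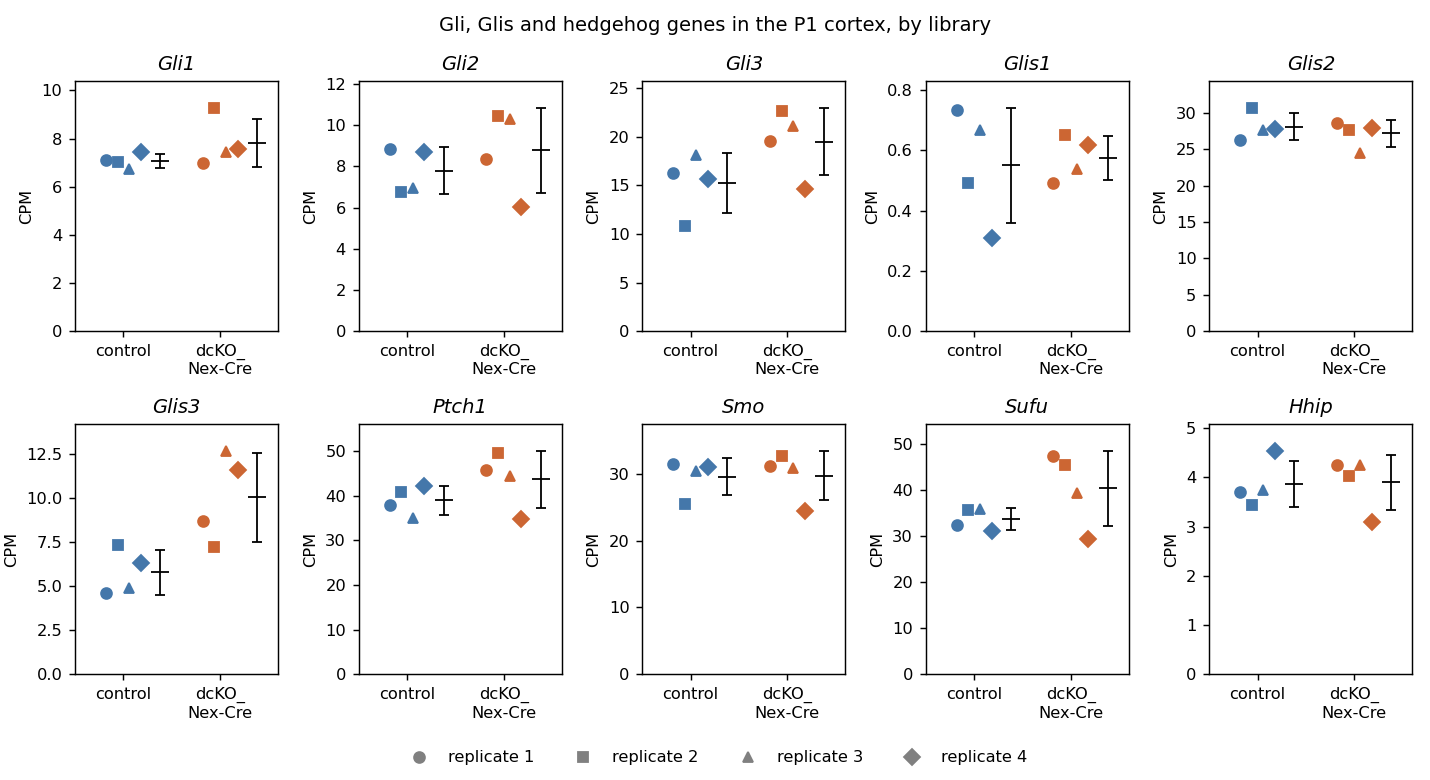
CPM of each of the 10 genes by library, with a marker shape for each replicate number and the mean ± SD (n = 4) at the right of each group. *Glis3* is higher in the dcKO_Nex-Cre cortex with 1 pair of libraries overlapping, and dcKO_Nex-Cre replicate 4 (diamond) is the lowest of its group for *Gli2*, *Gli3*, *Ptch1*, *Smo*, *Sufu* and *Hhip*.

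*Sufu* (ENSMUSG00000025231, chromosome 19, 46396896 to 46488804), the inhibitor that holds the GLI factors, was at 32.5, 35.5, 35.9 and 31.0 CPM in control replicates 1 to 4. The dcKO_Nex-Cre replicates 1 to 4 were at 47.3, 45.3, 39.2 and 29.3 CPM. Replicates 1 to 3 of the mutant were thus above every control library and replicate 4 was below every one. With all libraries the log2 fold change was 0.26 (standard error 0.13, 95% interval -0.034 to 0.56, adjusted p = 0.411, edgeR). Without dcKO_Nex-Cre replicate 4 it was 0.39 (standard error 0.088, adjusted p = 0.0282, edgeR), and within lane tag 2 it was 0.46 (standard error 0.090, adjusted p = 0.0429, edgeR). The call of *Sufu* therefore depended on 1 library. In the fit without that library 7.73% of all genes tested were called, and in the fit within lane tag 2 it was 1.48%.
The receptor *Ptch1* (ENSMUSG00000021466, chromosome 13, 63508328 to 63573598), which is also a target gene, showed a like pattern of libraries. It was at 37.9, 40.8, 34.9 and 42.2 CPM in the control and at 45.8, 49.6, 44.4 and 34.7 CPM in the dcKO_Nex-Cre cortex, where replicate 4 was below every control and the other replicates above every control. The log2 fold change was 0.17 (95% interval -0.079 to 0.41, adjusted p = 0.526, edgeR), and without dcKO_Nex-Cre replicate 4 it was 0.26 (adjusted p = 0.0681, edgeR). Without that library the groups did not overlap for *Gli3*, *Ptch1* and *Sufu* among the 10 genes, which was also the case for 27.2% of all genes tested.
*Smo* (ENSMUSG00000001761, chromosome 6, 29735503 to 29761365), the transducer of the signal, was at 25.5 to 31.5 CPM in the control and at 24.4 to 32.6 CPM in the dcKO_Nex-Cre cortex, each group with 1 low library, control replicate 2 and dcKO_Nex-Cre replicate 4. Its log2 fold change was 0.0091 with a 95% interval of -0.23 to 0.25 (adjusted p = 0.978, edgeR). *Hhip* (ENSMUSG00000064325, chromosome 8, 79965851 to 80058006), a decoy receptor that binds hedgehog ligands and is induced by them, was at 3.71, 3.45, 3.76 and 4.54 CPM in the control and at 4.26, 4.02, 4.25 and 3.09 CPM in the mutant. Its log2 fold change was 0.021, with an interval from -0.33 to 0.37 (adjusted p = 0.964, edgeR) and 55 to 147 counts per library. Without dcKO_Nex-Cre replicate 4 the log2 fold changes of *Smo* and *Hhip* were 0.095 and 0.12.

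None of the 9 genes other than *Glis3* passed an adjusted p of 0.05 in edgeR's test, and none had an unadjusted p under 0.05. Over all 16287 genes tested, 0.884% passed the adjusted threshold (0.375% higher and 0.51% lower in the mutant) and 13.6% the unadjusted one. DESeq2's Wald test, which called 2.66% of its genes, and limma-voom called 0 of the 9 as well. Of the 9 genes, 8 had a log2 fold change above 0, with a median of 0.14, where 50.9% of all genes tested were above 0 with a median of 0.0043. For none of the 10 genes were the groups free of overlap, against 8% of all genes tested, of which those higher in the mutant made up 3.99% of all genes tested.

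**Figure D3:**
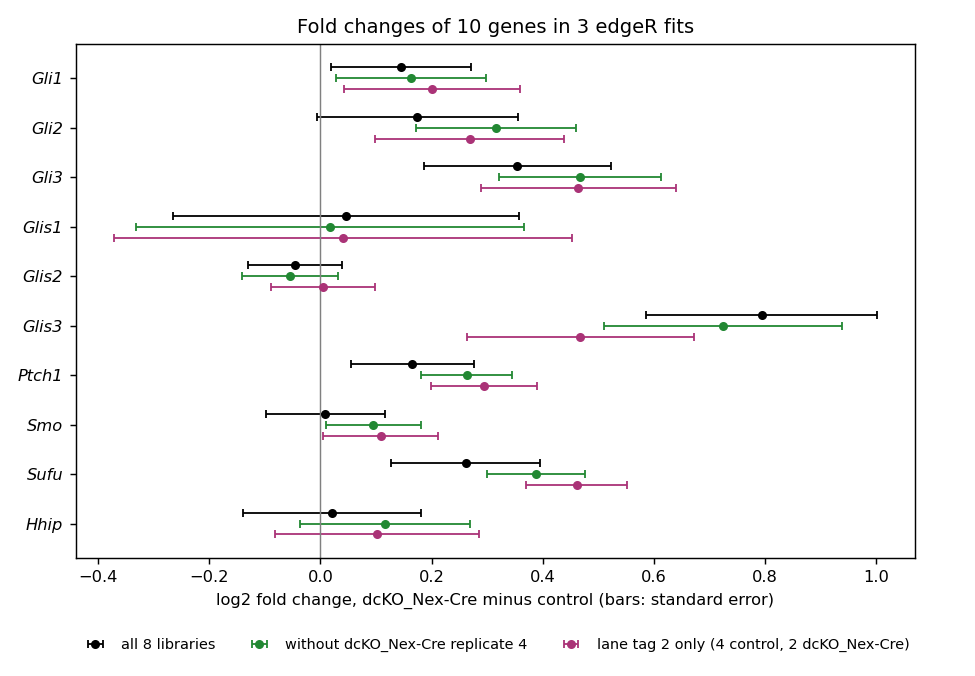
Log2 fold change (dcKO_Nex-Cre minus control) of the 10 genes from edgeR, with bars of 1 standard error, in the fit of all 8 libraries, without dcKO_Nex-Cre replicate 4 and within lane tag 2. *Sufu* shifts from 0.26 to 0.39 and 0.46, whereas *Glis3* goes from 0.79 to 0.72 and 0.47.

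Each library was also ranked within its group. dcKO_Nex-Cre replicate 4 was the lowest library of its group for 6 of the 10 genes, against 37.8% of all genes tested, and control replicate 2 for 4 of the 10 (*Gli2*, *Gli3*, *Smo* and *Hhip*), against 34.8%. These 2 libraries had the largest share of mitochondrial counts in their groups, 6.15% and 6.87%, where the other 6 libraries were at 2.33% to 4.24%. dcKO_Nex-Cre replicate 2 was the highest of its group for 6 of the 10 genes, against 18.8% of all genes tested, and it is the library with the ventral forebrain markers at 73.8 CPM. Control replicate 2, with the next largest sum of these markers (44.1 CPM), was the highest of its group for 2 of the 10 genes, against 36.6%. The part of these differences in the values of the 10 genes was not tested.
Gli factors are known from glial cells and their precursors, and in bulk tissue fewer cells of a type cannot be told apart from less RNA per cell. Markers of oligodendrocyte precursors (*Pdgfra*, *Olig1*, *Olig2*, *Cspg4* and *Sox10*) summed to 173 to 252.0 CPM in the control and to 252.1 to 308 CPM in the mutant libraries. Among the 5 genes *Cspg4* passed the test, with a log2 fold change of 0.56 (adjusted p = 0.0355, edgeR), and 4 had an unadjusted p under 0.05. Markers of radial glia and astrocytes summed to 2307 to 2743 CPM in the control and 1894 to 2413 CPM in the mutant. The gene with the most counts carried the largest part of this sum. Of the 8 genes, 5 had a log2 fold change above 0, with a median of 0.086, and 0 were called by edgeR. At an unadjusted p under 0.05 there was 1 in each direction. Markers of the meninges and pericytes (*Col1a1*, *Col1a2*, *Dcn*, *Lum*, *Foxc1*, *Pdgfrb* and *Rgs5*) summed to 160 to 208 and 132 to 193 CPM. Most of this sum was *Rgs5*, at 134 ± 16.8 and 101 ± 11.9 CPM (SD, n = 4 each, log2 fold change -0.41, adjusted p = 0.127, edgeR). Of the 7 genes, 5 were above 0, with a median of 0.19. Markers of cycling cells summed to 118 to 156 and 134 to 223 CPM. All 4 were above 0, with a median log2 fold change of 0.30, and 0 were called by edgeR. Summed markers of interneurons were at 676 to 818 and 582 to 740.2 CPM in control and mutant libraries. *Sst*, with the smallest adjusted p of the 6 genes, was at 65.1 to 122 and 43.4 to 65.5 CPM (log2 fold change -0.84, adjusted p = 0.0645, edgeR). The median of this list was -0.0091, with 2 of the 6 above 0. Summed markers of microglia were at 69.7 to 82.2 and 63.1 to 89.0 CPM. *P2ry12*, with the smallest adjusted p of the 5 genes, was at 11.7 to 12.4 and 6.96 to 9.30 CPM (log2 fold change -0.57, adjusted p = 0.0596, edgeR). The other way went 3 of the 5, with a list median of 0.046 and 1 gene in each direction at an unadjusted p under 0.05. Endothelial markers summed to 97.0 to 146 and 123 to 163 CPM, and blood markers to 70.7 to 116 and 69.9 to 162 CPM. All 5 endothelial and all 4 blood genes were above 0, with median log2 fold changes of 0.28 and 0.17, and 0 were called by edgeR. Choroid plexus markers, *Ttr* among them, varied from 4.15 to 1341 CPM between libraries of both groups. All 4 choroid plexus genes tested were lower in the mutant, with a median log2 fold change of -1.89 (smallest adjusted p = 0.459, edgeR). No marker gene of any list was at 0 in a library, and the part of these cell types in the values of the 10 genes was not tested.

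The rest of the hedgehog pathway was read from 7 lists ordered by role, with 94 genes, of which 93 were found and 85 tested. No gene of these lists passed an adjusted p of 0.05 in edgeR's test or limma-voom. Over all genes tested edgeR called 0.884%, and limma-voom 50 higher and 79 lower in the mutant. DESeq2's Wald test, which called 2.66% of its genes, called *Disp1* alone of these lists. At an unadjusted p under 0.05, 7 genes were higher and 6 lower in the dcKO_Nex-Cre cortex, against 6.59% and 7.05% of all genes tested. The median log2 fold change of the 85 genes was 0.057, with 54 above 0. Control and mutant libraries were fully separated in 6 of them, *Disp1*, *Gnas*, *Ift27*, *Mycn*, *Numb* and *Rpgrip1l*. Only *Gnas* was lower in the mutant, at -0.23 on the log2 scale. Over all genes tested, 8% were separated in this way.
Among the ligands, *Ihh* and *Dhh* were too low to be tested and *Shh*, named here after its values were seen, was at 0.334 to 1.24 CPM in the control and 0.225 to 0.725 CPM in the mutant (adjusted p = 0.833, edgeR). *Disp1*, which releases the lipid-bearing ligand from the cells that make it, was at 6.27, 8.16, 7.26 and 7.18 CPM in the control and at 11.2, 10.6, 8.87 and 8.92 CPM in the dcKO_Nex-Cre cortex. Every mutant library was above every control library, and the log2 fold change of *Disp1* was 0.46 (standard error 0.13, adjusted p = 0.152 from edgeR and 0.0477 from DESeq2). *Disp2* and *Scube1*, the genes of this list with the most counts, had log2 fold changes of 0.017 and -0.029.
The coreceptors went in opposite directions without passing the threshold. *Boc* was at 20.3 to 26.7 CPM in the control and 14.6 to 21.2 CPM in the mutant, a log2 fold change of -0.42 (adjusted p = 0.179, edgeR). *Gas1*, another coreceptor, had a log2 fold change of 0.46 (adjusted p = 0.332, edgeR), with 14.8 CPM in control replicate 2 and 25.7 to 28.9 CPM in the other controls. *Cdon*, a further coreceptor, was at 0.15 on the log2 scale (adjusted p = 0.601, edgeR).
In the relay from SMO, *Prkar1a* and *Csnk1a1*, of protein kinase A and casein kinase 1, were at 607 ± 41.8 and 545 ± 20.2 CPM in the control (SD, n = 4 each) with log2 fold changes of 0.0011 and 0.0051. *Evc2*, a ciliary partner of SMO, had a log2 fold change of -0.34 (adjusted p = 0.342, edgeR). Of the 14 genes that process or inhibit the GLI factors, 6 were above 0 and none had an unadjusted p under 0.05 in edgeR's test. Their range was -0.21 to 0.18, with *Spop* at -0.024, *Hdac2* at 0.059 and *Numb* at 0.18.
Of 24 genes of transport in the primary cilium, 16 had a log2 fold change above 0 and the median was 0.058. *Rpgrip1l*, a protein of the ciliary transition zone, was at 27.7 ± 1.29 CPM in the control and 31.8 ± 0.90 CPM in the mutant (SD, n = 4 each), with no overlap and a log2 fold change of 0.20 (adjusted p = 0.257, edgeR). *Kif3a* and *Kif3b*, motor subunits that carry cargo into the cilium, had 0.17 and 0.089.
Target genes of the pathway had a median of 0.072 over 14 tested, and 6 more, such as *Pax2* and *Nkx6-1*, were too low to be tested. *Mycn*, which drives proliferation, was at 75.0, 71.6, 78.0 and 60.6 CPM in the control and 92.7, 81.6, 81.6 and 94.0 CPM in the mutant, again with no overlap (log2 fold change 0.29, standard error 0.093, adjusted p = 0.198, edgeR). *Ccnd2*, a cyclin, was at 0.22 and *Bmi1* at 0.062 on the log2 scale. The 5 Zic genes, whose zinc fingers resemble those of the Gli factors, were not called by edgeR at either threshold, with *Zic1* at 0.099, *Zic2* at -0.030 and *Zic5* at -0.40 on the log2 scale. *Zic1* was at 71.0 CPM in control replicate 2 and 69.6 CPM in dcKO_Nex-Cre replicate 2, where the other 6 libraries had 17.1 to 38.3 CPM. These 2 libraries were also high for *Zic4*, named after its values were seen, at 27.4 and 33.8 CPM against 4.09 to 8.13 CPM, and they are the 2 with the most ventral forebrain marker RNA, whose part in these values was not tested.

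**Figure D4:**
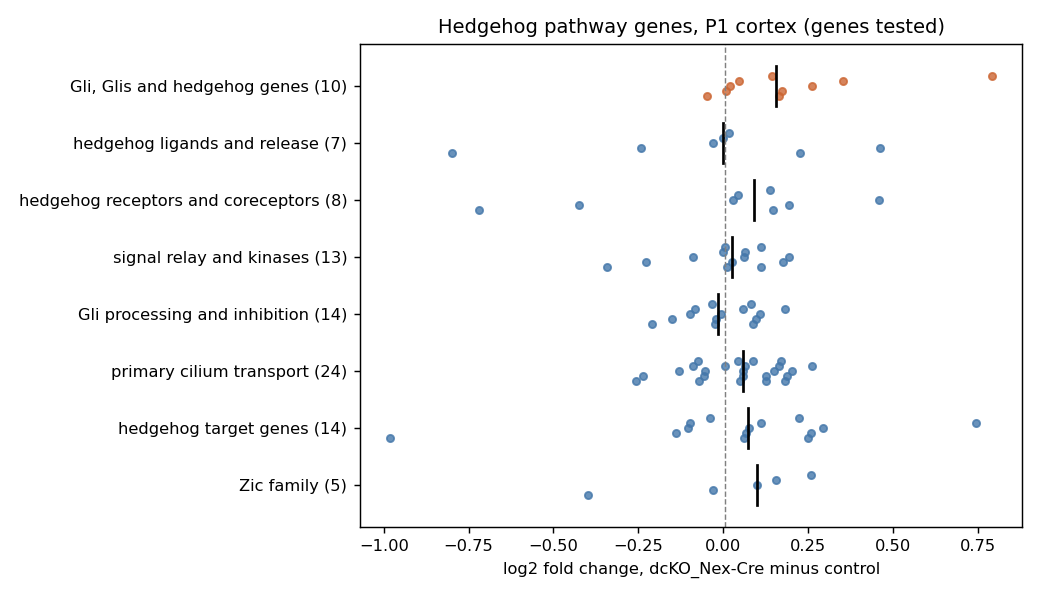
Log2 fold change (dcKO_Nex-Cre minus control) of the tested genes of each pathway list (blue) and of the 10 genes (orange), with the number tested in brackets, a black bar at each list's median and a dashed line at the median of all genes (0.0043). The list medians lie between -0.014 and 0.099, and that of the 10 genes at 0.16 includes *Glis3*.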

How the data were processed

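RNA-seq libraries of total RNA from the P1 cortex were made with a kit that does not mark strand. For each of the 8 libraries the authors deposited whole-number counts by Ensembl gene ID, with no normalization. The submitters' processing notes name the build mm10, and the aligner, counter and annotation are not given in the sources used here. Of the 48709 genes, 48349 were matched to GENCODE M21 on GRCm38, the same assembly, for symbols, positions and exon lengths. Counts were fitted in R 4.3.3 with edgeR 4.0.16 (filterByExpr with the groups, which kept 16287 genes, TMM factors, robust dispersions, quasi-likelihood F test, two-sided, no covariates), with Benjamini-Hochberg adjustment across the genes kept and a threshold of 0.05. Standard errors are the log2 fold change divided by the root of F, with 95% intervals from the moderated degrees of freedom. Alternatives were DESeq2 1.42.0 (Wald test, or its size factors in edgeR), limma 3.58.1 (voom), no filter, at least 10 counts in every library, the replicate number as a block, lane tag 2 only, and each library left out in turn. The script was tested on simulated counts. CPM per kilobase is CPM divided by the union length of exons. Python 3.11.15 and pandas 2.3.3 served for tables, figures were drawn with matplotlib 3.10.9.

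The 10 genes and the lists were chosen with earlier results of these data known. Of the pathway lists, the text names the called genes, the 2 with the most counts and that with the smallest p in each list. It also names the genes whose groups were fully separated. One listed name, Talpid3, was not matched. Replicates are samples that the labels number separately, and nothing in the labels says that they came from separate animals, so that p values may measure technical spread. No pair of libraries was a copy, since each pair within a group differed by more than counting noise (the smallest chi-square per degree of freedom was 3.77). Exons of *Glis2* and *Gli3* overlap *Pam16* and *Gm6556* on the opposite strand, with 37.3 and 17.9 counts on average against 654 and 423. Exons of *Gli1* overlap *Arhgap9* (12.8 counts against 176) and *Gm47200* (265 shared bases, its counts not analysed here), both on the opposite strand, and reads of such overlaps cannot be told apart without strand. The result of 1 marker gene is not reported here.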

Additional observations from a re-analysis of the deposited data

Results flagged for a closer look

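Among 70 groups of 4 values tested (CPM of the named genes, total counts and mitochondrial share, in each group), 4 held 1 library far from the other 3 by Dixon's criterion, where chance gives about 1 in 20, or 3.5. None of the 4 concerned the 10 Gli, Glis and hedgehog genes. *Zic1* was at 71.0 CPM and *Zic5* at 8.26 CPM in control replicate 2, with 20.9 to 28.4 and 4.26 to 4.67 CPM in the other controls. For *Zic1*, dcKO_Nex-Cre replicate 2 was as high, at 69.6 CPM. *Kif3b* was at 131 CPM in control replicate 2, against 164 to 169 CPM. *Rpgrip1l* was at 25.7 CPM in control replicate 3, against 28.1 to 28.4 CPM.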

How the results depend on the processing

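Genes called over all genes, 61 higher and 83 lower in the dcKO_Nex-Cre cortex, became 202 and 258 with DESeq2's Wald test, 109 and 150 with no filter, 140 higher within lane tag 2, and 21 and 33 with the replicate block. Leaving out 1 library gave 9 to 659 higher and 9 to 619 lower. Of the 9 genes other than *Glis3*, 1 was called within lane tag 2 (*Sufu*) and 0 to 1 when 1 library was left out. Of the 85 pathway genes tested, DESeq2 called 1 (*Disp1*) and the fits that left out 1 library 0 to 3, with *Cc2d2a*, *Disp1* and *Gpr161* called without dcKO_Nex-Cre replicate 4. In that last fit 7.73% of all genes tested were called. The cause was not tested. Values near 0 changed sign: *Glis2* was at 0.0050 within lane tag 2, and with 1 library left out *Glis1* ranged from -0.16 to 0.22, *Glis2* from -0.073 to 0.0059, *Smo* from -0.047 to 0.095 and *Hhip* from -0.023 to 0.12 on the log2 scale. *Gli1*, *Gli2*, *Gli3*, *Glis3*, *Ptch1* and *Sufu* stayed above 0 in every fit. *Smarcc2* was called in all 8 fits that left out a library and *Smarcc1* in 2 of them. Libraries with the same number had correlations of their deviations from the group means of -0.14 to 0.14, none was closest to its own number, and the block changed the call of none of the 9 genes tested. The low counts of *Glis1* limit what could be detected.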
